A study of Mus musculus with 32 samples.

Results

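The 33 genes described here build the lysosome or carry out autophagy in mouse liver, and they were taken by name from a list of lysosomal membrane proteins, lumenal hydrolases and their helpers, proton pump subunits, autophagy proteins and the regulator Tfeb. All 33 were found among the 21756 genes tested, through 48 array probes that all passed the filter on dim signal, so no member was lost. RNA came from livers of male C57/BL6 mice whose ages are not given in the sources used here, with one array per liver and 4 livers, named as biological replicates, in each of 8 groups (32 arrays). The groups crossed standard diet or a methionine and choline deficient (MCD) diet for 3 weeks with no drug or a dual agonist of the GLP1 and glucagon receptors (GLP1R/GCGR), which was dosed every 2 days at 4.4 mg/kg/day for 2 weeks and began after the first week in MCD animals. The other 4 groups had the same diet and drug and were sampled 2 weeks after 70% partial hepatectomy, with diet and drug continued to the end, so livers before and after hepatectomy also differed in the length of diet and dosing. The MCD diet produces a fatty, inflamed liver without obesity, which limits it as a model of human fatty liver disease.

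Lysosomes are acid organelles in which proteases (cathepsins), glycosidases and lipases digest material taken up from outside the cell or delivered by autophagosomes, and the V-ATPase proton pump keeps them acid. Autophagosomes form through the kinase Ulk1, Becn1 and the Atg proteins, and carry lipidated proteins of the LC3 and GABARAP families on their membranes. TFEB and its relatives TFE3 and MITF switch on many lysosomal and autophagy genes through a DNA motif built around the E-box CACGTG, and the kinase mTORC1 holds TFEB in the cytoplasm when nutrients are plentiful. In liver, hepatocytes use autophagy to break down lipid droplets and organelles, and macrophages are rich in lysosomes.

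Because TFEB acts through the E-box, the promoter windows of the genes were searched for it. RefSeq windows on GRCm38.p6, from 250 bases before to 50 bases after the start, matched 27 of the 33 genes; Ctsb, Ctsh, Npc1, Atp6v0d2, Map1lc3a and Becn1 had none. CACGTG, which reads the same on both strands, occurred in the windows of 10 of the 27 genes (37%) and of 8.09% of 27025 genes with a window of the same length. The longer TCACGTGA, a subset of those matches, occurred in 4 of the 27 genes (14.8%) and in 1.12% of all genes, and the CLEAR palindrome, which adds 1 more base on each side, occurred in 0 of the 27 and in 0.37% of all genes. Of the 10 genes with the E-box 5 were called in at least 1 of the 12 simple comparisons below. So were 10 of the 17 whose window lacks it and 57.2% of all genes tested, so both counts lie near that share. Atg5, Ctsa, Ctsd, Gaa and Lamp1, whose window holds 4 sites, were called in none. The sites of the 5 called genes, and that of Ctsd as 1 of the 5 that were not called, are printed in 30-base stretches from 5′ to 3′ on the gene's strand, with CACGTG in capitals. They lie at chr9:114401018-114401047 (+) for Glb1, chr13:64370739-64370768 (-) for Ctsl, chr8:3500436-3500465 (+) and chr8:3500462-3500491 (+) for Mcoln1, chr16:44139373-44139402 (-) for Atp6v1a, chr6:114670952-114670981 (+) for Atg7 and chr7:142387908-142387937 (-) for Ctsd.
Glb1: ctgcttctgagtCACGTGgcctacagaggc
Ctsl: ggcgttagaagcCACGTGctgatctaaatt
Mcoln1, upstream site: ggtcgcgcttgtCACGTGttcagttcaggc
Mcoln1, downstream site: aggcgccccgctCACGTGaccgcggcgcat
Atp6v1a: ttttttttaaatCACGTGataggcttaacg
Atg7: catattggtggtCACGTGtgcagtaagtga
Ctsd: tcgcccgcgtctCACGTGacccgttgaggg

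Before any result, one disagreement in the deposit has to be stated. Groups used here are those of the sample titles, with each scanner file taken as the array of the sample it was deposited under. In the deposited table of processed values, 16 of the 32 columns matched best an array of another group by rank correlation over 59305 spots, with MCD diet and standard diet with agonist exchanged both before and after hepatectomy. These 16 columns reached 0.880 to 0.937 against the array of their own label, while the best matches of all 32 columns ran from 0.917 to 0.990. Whether the scanner files or the table columns sit under the right samples cannot be told from the files. Counts from the table as labelled are therefore given beside each diet and agonist comparison. As labelled, each diet comparison takes the columns that match the arrays of an agonist comparison, and the reverse. Among the diet and agonist comparisons the exchange leaves only their interaction as it is. The table was not used across hepatectomy. There the exchange would swap 2 comparisons, hepatectomy on MCD diet without agonist and on standard diet with agonist. It would leave hepatectomy on standard diet without agonist and on MCD diet with agonist as they are. Each of 4 slides carried 2 groups, 1 group per row. Both baseline diet comparisons and both agonist comparisons after hepatectomy fell within a slide, and there row 2 was always compared with row 1. In the other simple comparisons slide and group cannot be told apart. Per the file headers 2 scanners were used, 1 for all arrays before and 1 for all arrays after hepatectomy, so scanner and hepatectomy cannot be told apart either. Between 44.4% and 69.7% of spots per array were well above background (median 53.8%), at most 2 were saturated, and the median correlation of an array with its own group ran from 0.952 to 0.983.

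A level below is the log2 signal of a gene's brightest probe relative to its array's 75th percentile, and a change is a difference of group means in log2 units ± SE from one limma fit over all 8 groups, with n = 4 livers per group. A gene was called, or rose or fell, when its Benjamini-Hochberg adjusted p over all 21756 genes was under 0.05. The number of arrays limits the precision. In 12 simple comparisons 18 of the 33 genes were called at least once, beside 57.2% of all genes, and 15 were called in none. Those 15 were the cathepsins Ctsa, Ctsb, Ctsd and Ctsh, the glycosidases Gaa, Gusb and Hexa, the membrane proteins Lamp1 and Lamp2, the lumenal proteins Grn, Npc2 and Psap, and the autophagy genes Atg5, Becn1 and Ulk1. Psap, the precursor of the saposins, spanned changes from -0.74 to 1.00 without passing the test, and Ctsd, an aspartic protease, spanned -0.53 to 0.26. Lamp1, the most used marker of the lysosomal membrane, spanned -0.42 to 0.61.

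**Figure D1:**
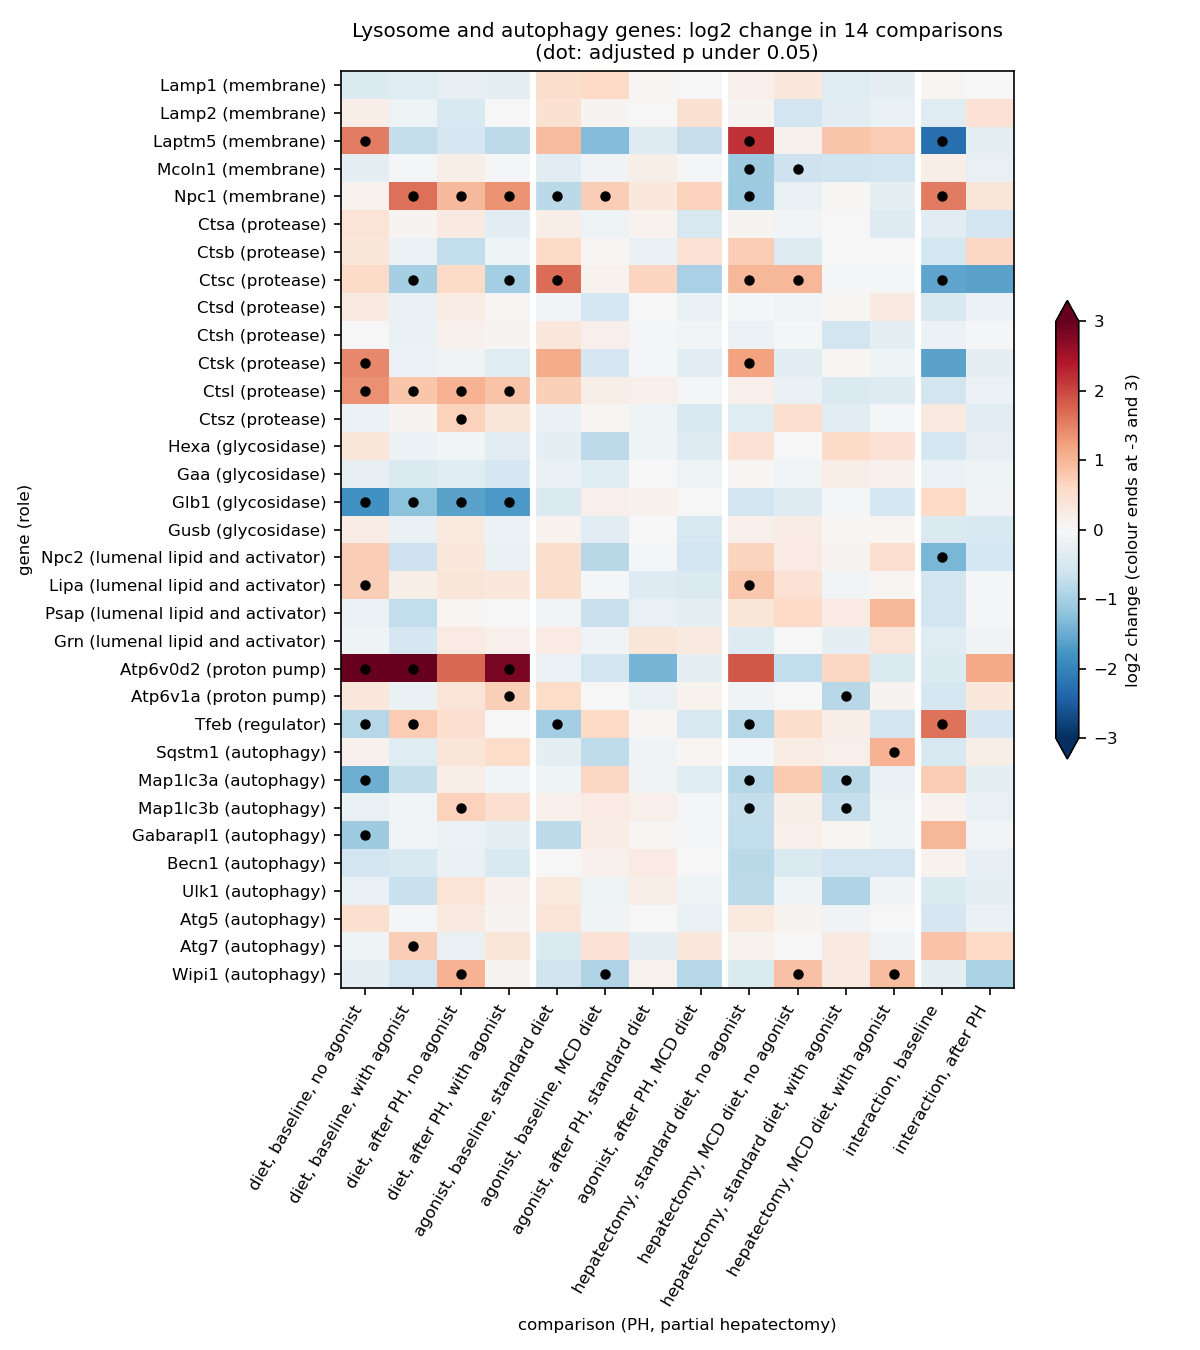
Log2 change of the 33 genes (rows, with their role) in 14 comparisons (columns; PH, partial hepatectomy), red for higher and blue for lower in the MCD, agonist or hepatectomy group, and a dot where adjusted p was under 0.05. Glb1 and Ctsl carry a dot in each of the 4 diet columns, and the columns of the agonist after hepatectomy have 0 dots.

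On the MCD diet at baseline without agonist Glb1, Map1lc3a, Gabarapl1 and Tfeb fell, and Ctsl, Atp6v0d2, Ctsk, Laptm5 and Lipa rose, but the share of the genes called was close to that of all genes. Of the 33 genes 9 were called (27.3%), 5 higher and 4 lower, beside 26% of all genes tested (10.7% higher, 15.3% lower). The 2 groups of arrays did not overlap for 9 of the 33, beside 27.9% of all genes. The median change was 0.10 over the 33 genes and -0.13 over all genes. Median scaling of the arrays shifted the all-gene median to 0.23 and the split to 9 higher and 2 lower, beside 4426 higher and 1230 lower of all genes.

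The glycosidase Glb1, lysosomal beta-galactosidase, had the smallest adjusted p of the 33. Its levels were 1.65, 2.99, 2.72 and 2.67 in the 4 standard-diet livers and 1.18, 0.11, 0.89 and 0.56 in the 4 MCD livers. The 2 groups did not overlap. The difference was -1.82 ± 0.29, which is 3.54-fold lower on MCD diet (limma, adjusted p = 6.50e-05). The cysteine protease Ctsl went the other way, from 6.97, 7.88, 7.53 and 7.49 on standard diet to 8.52, 8.77, 9.15 and 8.93 on MCD diet. It rose by 1.38 ± 0.23 (2.60-fold, adjusted p = 8.81e-05), with every MCD liver above every standard liver.

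Atp6v0d2, a subunit of the proton pump's membrane sector that is abundant in osteoclasts and some macrophages, showed the widest gap. It stood at -3.28, -2.25, -2.37 and -2.45 on standard diet and at 0.96, 1.39, 2.26 and 2.24 on MCD diet. The change was 4.30 ± 0.76 (19.7-fold, adjusted p = 0.000184). The cathepsin Ctsk rose by 1.44 ± 0.40 (adjusted p = 0.00859), Laptm5, a lysosomal membrane protein of blood-derived cells, by 1.54 ± 0.47 (adjusted p = 0.0159), and the acid lipase Lipa, which frees cholesterol and fatty acids from lipids taken up, by 0.74 ± 0.24 (adjusted p = 0.0245).

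The other 3 genes that fell belong to autophagy and its control. Map1lc3a, one of the LC3 proteins, changed by -1.46 ± 0.26 (adjusted p = 0.00018), Gabarapl1 by -1.08 ± 0.30 (adjusted p = 0.00846, with 1 flagged standard-diet array left out) and Tfeb by -0.86 ± 0.24 (adjusted p = 0.00919). Tfeb levels were 0.45, 0.14, -0.47 and -0.39 on standard diet and -0.84, -0.82, -1.39 and -0.69 on MCD diet, without overlap. Median scaling ended the calls of Tfeb and Gabarapl1 (changes of -0.50 and -0.67), and single left-out arrays those of Laptm5 (1.17, adjusted p = 0.0806 without standard-diet replicate 1) and Lipa (adjusted p up to 0.0854). With the processed table as labelled 3 of the 33 were called, beside 5.48% of all genes, and Atp6v0d2 had the opposite sign (-0.33). With its columns placed at the arrays they match 9 were called, beside 19.3% of all genes.

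Markers of macrophages moved with this comparison. Of 12 measured markers of recruited macrophages 9 rose and 0 fell, and their summed signal ran from 26.2 to 50.3 times the array's 75th percentile in standard-diet livers and from 62.0 to 142 in MCD livers. That list shares Spp1 with the cholangiocyte markers and Cd68 with the other lysosomal membrane and sorting genes below. Its count and sums are therefore not of recruited macrophages alone. Of 6 measured Kupffer cell markers 3 rose, with sums of 40.3 to 70.7 and 93.7 to 262, and of 9 stellate cell markers 3 rose, with sums of 73.1 to 95.3 and 196 to 387. The marker Gpnmb was not well above background on the arrays of standard diet with or without agonist, and 4 of 9 hepatocyte markers fell, although all 9 stayed well above background on all arrays. The part of these cells in the results for Atp6v0d2, Ctsk, Laptm5 and Lipa was not tested, and in whole liver fewer cells of a type and less RNA per cell cannot be told apart.

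**Figure D2:**
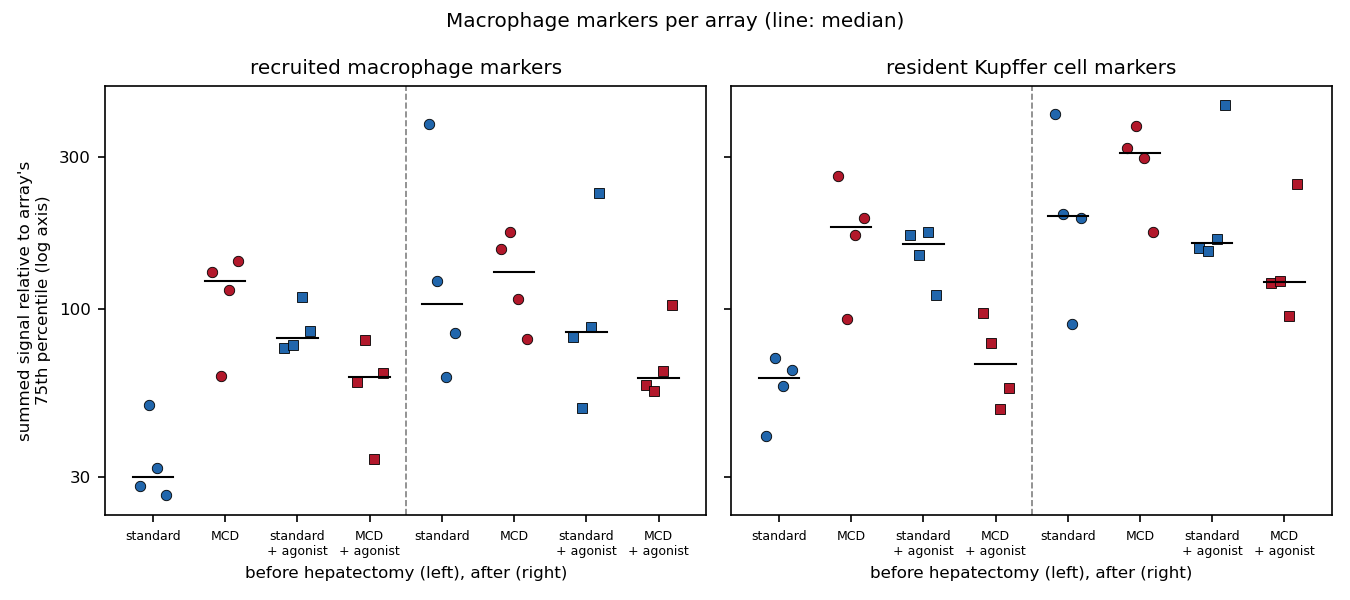
Summed signal of 12 recruited macrophage markers (left) and 6 Kupffer cell markers (right) per array, relative to the array's 75th percentile on a log axis, for 8 groups of 4 livers (blue, standard diet; red, MCD diet; squares, agonist; line, median). Before hepatectomy without agonist the recruited macrophage sums span 26.2 to 50.3 on standard diet and 62.0 to 142 on MCD diet.

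Other genes of the pathway moved in both directions on the same diet. Of 31 other lysosomal enzymes 6 rose and 7 fell, and those with the smallest adjusted p were the protease Ctsf (-1.37), the ganglioside activator Gm2a (-1.61) and the macrophage cathepsin Ctss (2.59). Of 24 other membrane and sorting genes 5 rose and 3 fell, led by the transporter Abca2 (-2.40), the tetraspanin Cd63 (2.72) and the metal transporter Slc11a1 of phagocytes (2.11). Of 17 other V-ATPase subunits 3 rose and 2 fell, among them Atp6v0e2 (1.94), Atp6v1d (1.14) and Atp6v0c (-0.86). Of 24 other autophagosome genes 1 rose and 3 fell, and the lipid transfer protein Atg2a (-1.20), Atg16l2 (-1.14) and the kinase Ulk2 (-1.02) were the 3 that fell. Of 21 genes that control TFEB and mTORC1, 6 rose and 1 fell, and the 3 with the smallest adjusted p were Foxo3 (-1.25), the mTORC1 inhibitor Ddit4 (2.50) and Mitf, a relative of TFEB (0.88).

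With the agonist in both arms at baseline the diet comparison called 7 of the 33 genes (21.2%), 5 higher and 2 lower, beside 15.2% of all genes (8.09% higher, 7.07% lower). No overlap between arrays was seen for 5 genes, beside 14.2% of all genes. The median change was -0.19 over the 33 genes and 0.03 over all. Npc1, the membrane protein that exports cholesterol from the lysosome, led with levels of 1.54, 2.09, 1.60 and 1.94 on standard diet with agonist and 3.60, 3.24, 3.02 and 3.93 on MCD diet with agonist. It was higher by 1.65 ± 0.22 (3.15-fold, adjusted p = 1.06e-05), with no overlap. Atp6v0d2 went from -2.02, -3.04, -2.62 and -3.32 to 1.76, 1.30, 0.88 and 0.65, a change of 3.90 (adjusted p = 0.00081), with 1 of the 4 standard-diet arrays not well above background.

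Glb1 levels were 1.81, 2.40, 1.95 and 2.12 on standard diet with agonist and 1.16, 0.15, 1.34 and 0.71 on MCD diet with agonist, again without overlap, and it fell by 1.23 on the log2 scale (adjusted p = 0.00456). Ctsl rose by 0.83 (adjusted p = 0.0124), from 8.75, 7.89, 8.20 and 7.89 to 9.03, 9.27, 8.72 and 9.03, with 1 standard-diet array inside the MCD range. Tfeb here was higher on MCD diet, by 0.76 (adjusted p = 0.0308). Atg7, the enzyme that activates the LC3 proteins for lipidation, was higher by 0.74 (adjusted p = 0.0355), but its other probe gave -0.28. Ctsc, the dipeptidyl peptidase that activates granule proteases of leukocytes, was lower by 0.99 ± 0.32 on the log2 scale (a change of -0.99, adjusted p = 0.0361), and 4 of 6 Kupffer cell markers fell in the same comparison, their part in it not tested. Single left-out arrays ended the calls of Tfeb, Atg7 and Ctsc (adjusted p 0.0546 to 0.167). A fit to the groups compared alone called 3 genes, beside 5.74% of all genes. Median scaling gave 3 higher and 3 lower, beside 1018 higher and 1867 lower of all genes. The table as labelled called 6, beside 11.9% of all genes, with Atp6v0d2 at -0.38 and Ctsc at 0.012.

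After hepatectomy without agonist the diet comparison called 6 of the 33 genes (18.2%), 5 higher and 1 lower, beside 11.5% of all genes (5.52% higher, 5.98% lower), and the arrays did not overlap for 8 genes, beside 16.9% of all genes. The median change was 0.25 over the 33 genes and -0.04 over all. Glb1 levels lay at 1.89, 1.96, 1.87 and 1.98 on standard diet and at 0.13, 0.34, 0.24 and 0.53 on MCD diet. The tight groups stood far apart, and the gene was 3.06-fold lower on MCD diet (-1.62, adjusted p = 0.000571). Ctsl levels went from 7.33, 7.74, 7.54 and 7.83 to 8.13, 8.80, 8.85 and 8.81, a rise of 1.04 (adjusted p = 0.00324). Npc1 rose by 0.97 (adjusted p = 0.00469), from 1.54, 1.18, 1.71 and 1.64 to 2.40, 2.42, 2.49 and 2.62, again with every MCD liver above every standard liver.

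Both called autophagy genes were higher on MCD diet after hepatectomy. Wipi1, a phosphoinositide-binding protein of the forming autophagosome, stood at 1.12, 0.87, 0.97 and 0.74 on standard diet and at 2.16, 2.01, 1.97 and 1.73 on MCD diet. It rose by 1.04 ± 0.25 (adjusted p = 0.00706), and both of its other probes had the same sign. Map1lc3b, the LC3 protein most used as an autophagosome marker, rose by 0.69 ± 0.18 (adjusted p = 0.0127), from 4.58, 4.90, 4.93 and 4.60 to 5.44, 5.54, 5.43 and 5.34. The carboxypeptidase Ctsz rose by 0.68 ± 0.21 (adjusted p = 0.034) with overlapping arrays, and single left-out arrays ended its call (adjusted p 0.065 to 0.0925). Atp6v0d2, at 1.72, did not pass the test, and its 4 standard-diet livers spread from -2.41 to 1.12. In this comparison 5 of 8 neutrophil markers rose, with sums of 11.6 to 37.9 on standard diet and 55.8 to 184 on MCD diet, and 3 of 9 stellate cell markers fell, while 0 of 12 recruited macrophage markers and 0 of 6 Kupffer cell markers were called. Their part in the values of the 6 genes was not tested. With the table as labelled 0 of the 33 were called, beside 0.0046% of all genes, and Glb1, Ctsl, Ctsz and Wipi1 had the opposite sign. With its columns at the arrays they match 5 were called, beside 13.8% of all genes.

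After hepatectomy with agonist in both arms the diet comparison also called 6 of the 33 genes (18.2%), 4 higher and 2 lower, beside 8.25% of all genes (4.32% higher, 3.93% lower). Groups were apart on every array for 4 genes, beside 20.3% of all genes, and the median change was 0.01 over the 33 genes and -0.0038 over all. Npc1 rose by 1.34 (adjusted p = 0.000281), from 1.66, 1.56, 1.82 and 2.27 to 3.27, 3.27, 3.08 and 3.05. Glb1 fell by 1.72 on the log2 scale (adjusted p = 0.000404), from 2.01, 2.07, 2.11 and 1.98 to 0.38, -0.15, -0.17 and 1.22. Neither gene had overlapping groups. Of 4 pancreatic acinar markers 3 rose here, their part in the values not tested, and 0 macrophage or Kupffer cell markers were called.

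Ctsl rose by 0.86 (adjusted p = 0.0159), from 7.50, 7.93, 7.48 and 8.12 to 8.53, 8.70, 8.72 and 8.54. Atp6v0d2 rose by 2.84 (adjusted p = 0.0172), from -4.16, -2.39, -3.59 and 1.57 to -0.21, 1.30, 1.41 and 0.32. One standard-diet liver with agonist lay above every MCD liver of that comparison, and 1 of the 4 standard-diet arrays was not well above background. The high liver also held the highest Kupffer cell sum of all arrays, 434 beside 152 to 166 in the rest of its group, and a recruited macrophage sum of 230 beside 49.2 to 87.9, whose part in its level was not tested. Without it the change was 4.08 (adjusted p = 2.82e-05), while leaving out any of 5 other arrays ended the call (changes of 2.17 to 2.76). Atp6v1a, the catalytic subunit of the proton pump, rose by 0.72 ± 0.22 (adjusted p = 0.0416), from 3.09, 3.11, 3.13 and 3.48 to 3.97, 4.05, 3.97 and 3.68. Ctsc changed by -1.02 (adjusted p = 0.0482) and by -0.86 (adjusted p = 0.127) without the same liver. Single left-out arrays also ended the calls of Ctsl, Atp6v1a and Ctsc (adjusted p 0.0505 to 0.16). With the table as labelled 0 were called, beside 0.193% of all genes, with Glb1 at 0.16 and Atp6v0d2 at -0.18.

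**Figure D3:**
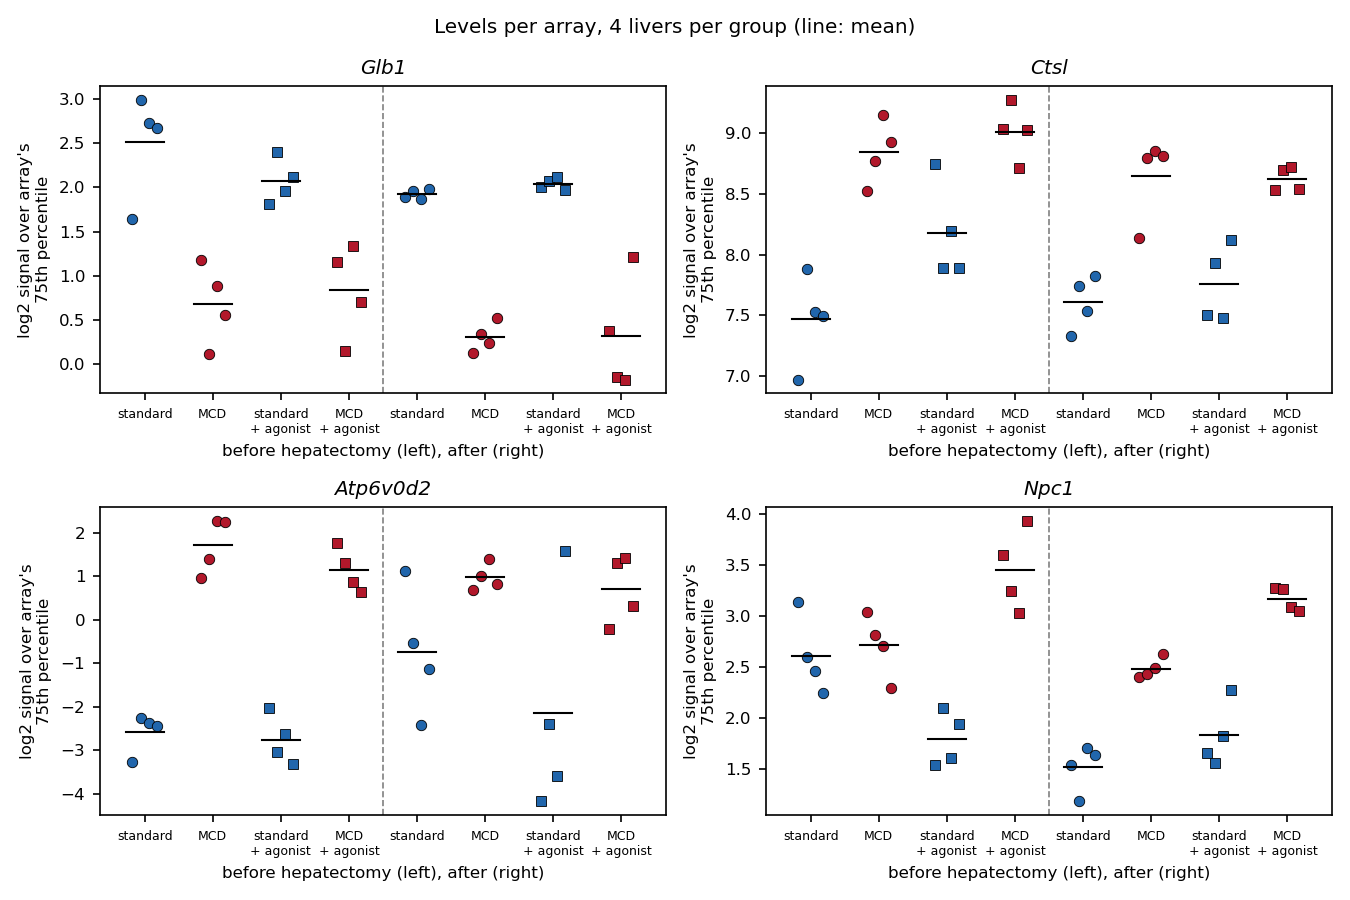
Levels of Glb1, Ctsl, Atp6v0d2 and Npc1 per array (log2 signal relative to the array's 75th percentile; 8 groups of 4 livers; blue, standard diet; red, MCD diet; squares, agonist; line, mean). Glb1 is lower and Ctsl higher on MCD diet in each of the 4 pairs of groups, and Npc1 separates the diets in 3 of the 4.

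The 4 diet comparisons share no arrays. Glb1 fell and Ctsl rose in all 4, and 1.82% of all genes were called in the same direction in all 4. Atp6v0d2 and Npc1 rose in 3 of the 4, so 4 of the 33 genes reached at least 3 calls in one direction, beside 4.74% of all genes. Among the other pathway genes, 3 of 126 fell in all 4 comparisons and 0 rose in all 4. In the order of the text the changes were -1.14, -2.30, -1.65 and -2.16 for Atg16l2, -1.61, -0.83, -0.93 and -1.20 for Gm2a and -2.40, -0.94, -0.93 and -0.99 for Abca2. The lipid enzyme Smpd1, acid sphingomyelinase, rose in both comparisons after hepatectomy (0.82 and 0.58).

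**Figure D4:**
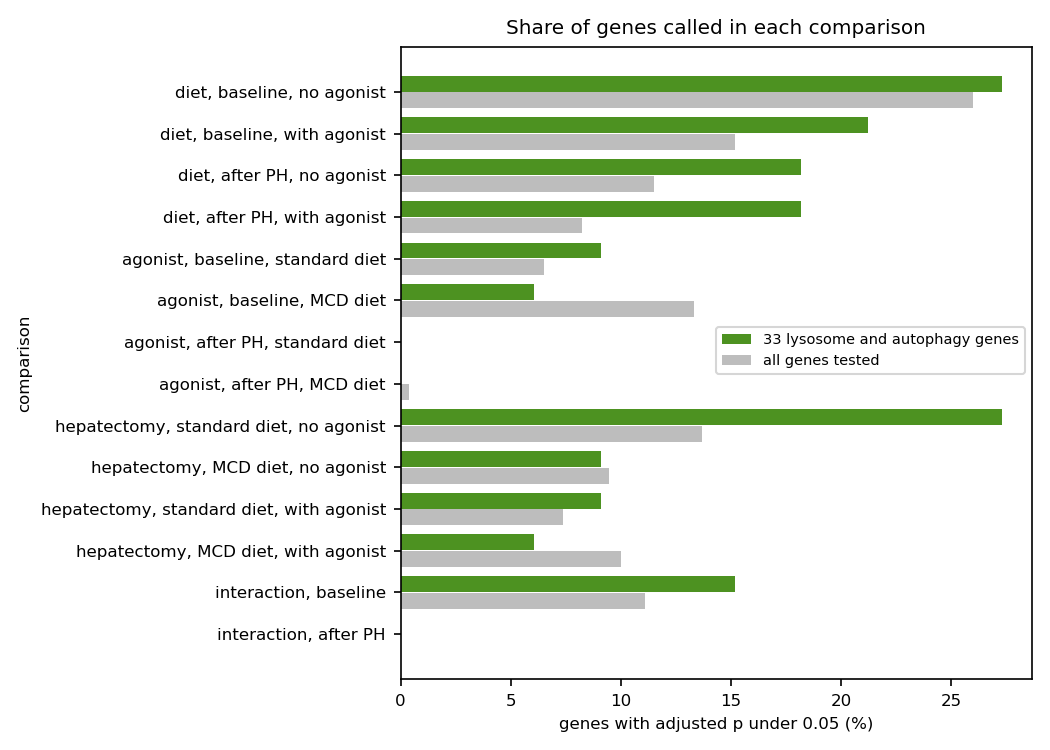
Share of the 33 genes (green) and of all 21756 genes (grey) with adjusted p under 0.05 in each of 14 comparisons. Both bars are near 27% and 26% for the diet at baseline, and hepatectomy on standard diet has 27.3% beside 13.7%.

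The agonist on standard diet at baseline called 3 of the 33 genes (9.09%), 1 higher and 2 lower, beside 6.51% of all genes (3.3% higher, 3.21% lower). The arrays did not overlap for 7 genes, beside 11.3% of all genes, and the median change was 0.11 over the 33 genes and -0.01 over all. Ctsc levels rose from 2.56, 2.08, 2.20 and 2.41 without to 4.07, 4.30, 4.29 and 3.28 with the agonist, a change of 1.67 ± 0.32 (3.19-fold, adjusted p = 0.00313) without overlap. Tfeb was lower by 1.02 on the log2 scale (a change of -1.02, adjusted p = 0.0129), from 0.45, 0.14, -0.47 and -0.39 to -1.65, -0.44, -1.16 and -1.10, with 1 agonist array inside the untreated range. Npc1 changed by -0.82 (adjusted p = 0.0261), from 3.14, 2.60, 2.46 and 2.25 to 1.54, 2.09, 1.60 and 1.94. In the same comparison 4 of 6 Kupffer cell markers rose, with sums from 111 to 175 with agonist beside 40.3 to 70.7 without. Of 12 recruited macrophage markers 1 rose, but their sums did not overlap either, at 75.8 to 109 with agonist and 26.2 to 50.3 without. The part of both lists in the change of Ctsc was not tested. Median scaling gave 3 higher and 0 lower, beside 970 higher and 300 lower of all genes. It ended the calls of Tfeb and Npc1, as single left-out arrays did (adjusted p 0.0675 to 0.0956). The table as labelled called 9, beside 19.3% of all genes.

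On MCD diet at baseline the agonist called 2 of the 33 genes (6.06%), 1 in each direction, beside 13.3% of all genes (8.91% higher, 4.38% lower). Groups did not overlap for 4 genes, beside 18.4% of all genes, and the median change was -0.03 over the 33 genes and 0.14 over all. Wipi1 changed by -0.90 (adjusted p = 0.0185), from 1.11, 1.06, 0.96 and 1.24 to -0.19, 0.45, -0.39 and 0.90, but 1 of its 2 other probes had the opposite sign. Npc1 changed by 0.74 (adjusted p = 0.0267), from 3.04, 2.81, 2.70 and 2.29 to 3.60, 3.24, 3.02 and 3.93. Both calls were lost without single arrays (adjusted p 0.0517 to 0.106). A fit to the 2 groups alone called 0 of the 33, beside 9.01% of all genes. Median scaling called 6, all lower, with the all-gene median at -0.20 and 451 higher and 2186 lower of all genes. With the table as labelled 3 were called, 2 higher and 1 lower, beside 7.42% of all genes. With its columns at the arrays they match 6 were called, beside 11.9%. Of 6 Kupffer cell markers 5 fell, with sums of 93.7 to 262 without and 48.9 to 97.1 with the agonist, and 3 of 9 stellate cell markers fell, their part in these calls not tested. Of 31 other lysosomal enzymes 5 rose, among them Naglu (0.85), Sgsh (1.24) and Ctsf (0.71).

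After hepatectomy the agonist called 0 of the 33 genes on either diet by limma, beside 0.00919% of all genes on standard diet (all higher) and 0.404% on MCD diet (0.184% higher, 0.221% lower). At an unadjusted p under 0.05 there were 0 on standard diet and 5 on MCD diet. The share of all genes under that threshold was not counted, so these counts cannot be set against it. The lowest adjusted p on MCD diet was that of Wipi1 (-0.85, adjusted p = 0.126), at 2.16, 2.01, 1.97 and 1.73 without and 0.92, 1.04, 1.02 and 1.50 with the agonist, followed by Npc1 (0.69, adjusted p = 0.159). The arrays did not overlap for 5 genes on MCD diet, beside 10.2% of all genes, and for 1 gene on standard diet, beside 2.8%. With the table as labelled 5 genes were called on standard diet, beside 13.8% of all genes, and 4 on MCD diet, beside 9.1%.

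The interaction of diet and agonist asks whether the diet change differed with and without the drug. At baseline it called 5 of the 33 genes (15.2%), 2 higher and 3 lower, beside 11.1% of all genes (6.17% higher, 4.93% lower), with a median of -0.36 over the 33 genes and 0.18 over all. For Tfeb the diet change was -0.86 without and 0.76 with agonist, and the difference was 1.62 ± 0.34 (adjusted p = 0.00362). The 4 MCD livers with agonist held Tfeb at -0.36, -0.49, -0.23 and -0.24, above all 4 MCD livers without it. For Npc1 the difference was 1.55 ± 0.31 (adjusted p = 0.00264). The diet changed Npc1 by 0.10 without and by 1.65 with agonist.

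The 3 lower interaction terms came from a leukocyte protease, a membrane protein of blood-derived cells and a cholesterol carrier. Ctsc had -1.57 ± 0.46 (adjusted p = 0.0253), with 3.09, 2.48, 2.54 and 3.47 on MCD diet and 3.71, 2.87, 2.81 and 2.59 on MCD diet with agonist. Laptm5 had -2.25 ± 0.66 (adjusted p = 0.0266), and its levels, shown because of this value, were -2.35, -0.16, -0.93 and -1.52 on standard diet, 0.46, -0.11, 0.26 and 0.61 on MCD diet, -0.57, 0.20, -0.78 and -0.03 on standard diet with agonist and -1.91, 0.43, -1.50 and -1.06 on MCD diet with agonist. Npc2, which hands cholesterol to Npc1 in the lysosome, had -1.37 ± 0.41 (adjusted p = 0.0296) and was called in none of the simple comparisons. Of 6 Kupffer cell markers 5 fell in the interaction, and 3 of 12 recruited macrophage markers and 3 of 9 stellate cell markers did. Their part in the values of Ctsc, Laptm5 and Npc2 was not tested. These 3 calls were lost without single arrays (adjusted p 0.051 to 0.067).

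**Figure D5:**
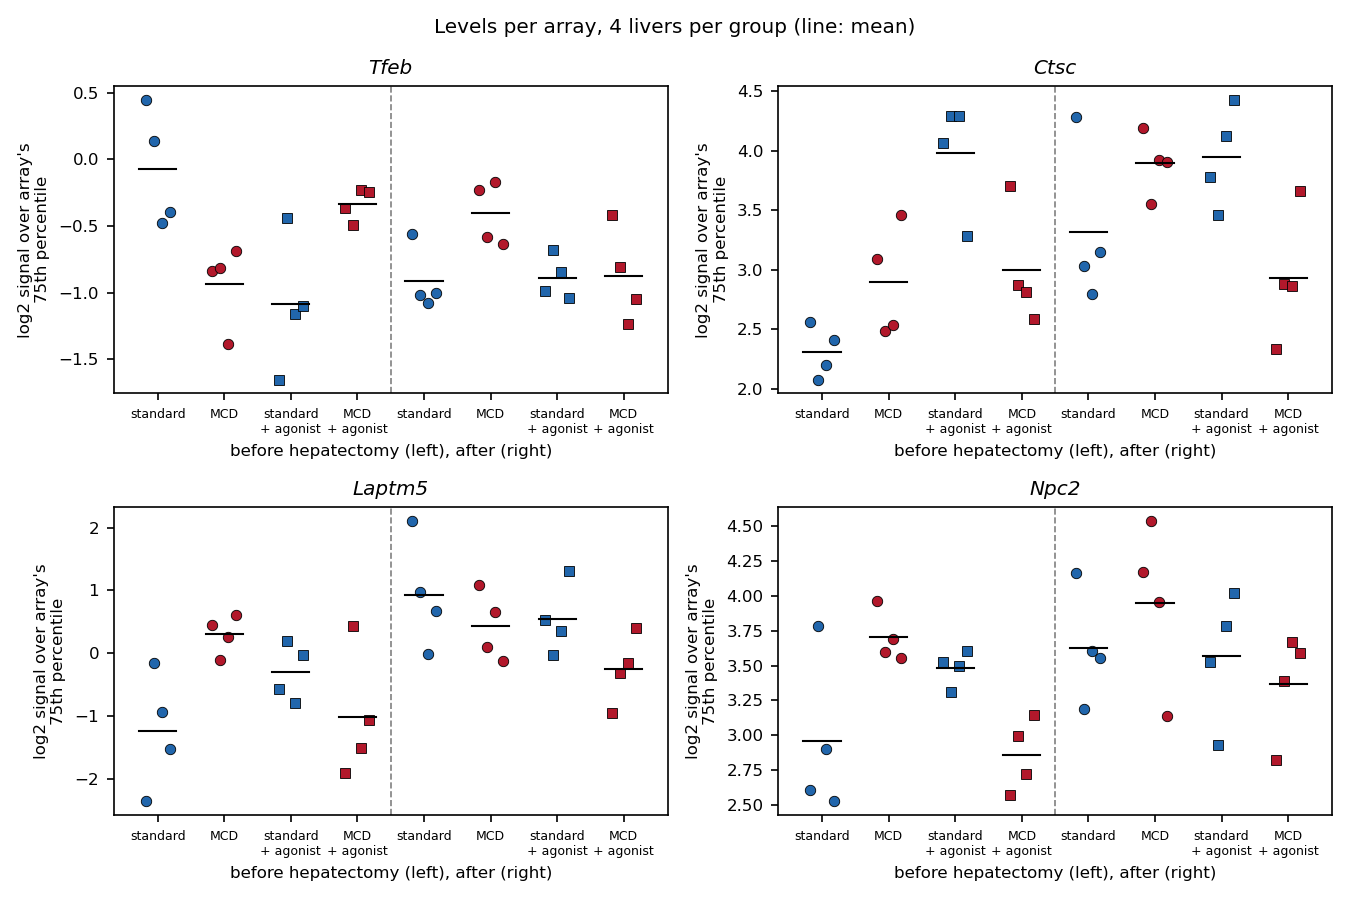
Levels of Tfeb, Ctsc, Laptm5 and Npc2 per array (log2 signal relative to the array's 75th percentile; 8 groups of 4 livers; blue, standard diet; red, MCD diet; squares, agonist; line, mean). Before hepatectomy Tfeb is higher on standard than MCD diet without agonist and lower with it, while Ctsc, Laptm5 and Npc2 show the reverse order.

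The exchange of columns in the processed table cancels in this term. Both readings of the table called 2 of the 33, Tfeb and Laptm5, beside 6.37% of all genes. Median scaling moved the all-gene median to -0.35 and called 6 genes, all lower, beside 262 higher and 2459 lower of all genes. With it Tfeb at 1.09 and Npc1 at 1.03 were no longer called. Among the other pathway genes the smallest adjusted p of the interaction was that of Atg2a (2.22 ± 0.32, adjusted p = 0.000179), followed by the protease Ctss (-3.83, adjusted p = 0.00255) and Foxo3 (2.24, adjusted p = 0.00296). After hepatectomy the interaction called 0 of the 33 genes by limma, beside 0.0046% of all genes. At an unadjusted p under 0.05 there were 2, and the share of all genes under that threshold was not counted.

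Livers sampled 2 weeks after hepatectomy were compared with livers before it, in the same diet and drug group. On standard diet without agonist 9 of the 33 genes were called (27.3%), 4 higher and 5 lower, beside 13.7% of all genes (6.31% higher, 7.44% lower). The arrays did not overlap for 11 genes, beside 17.5% of all genes, and the median change was 0.03 over the 33 genes and -0.07 over all. Mcoln1, the calcium channel of the lysosomal membrane, was at 4.47, 4.81, 4.35 and 4.31 before and at 3.29, 3.34, 3.59 and 3.43 after hepatectomy. It changed by -1.08 ± 0.20 (2.11-fold lower, adjusted p = 0.000883), without overlap. Its promoter window holds 2 E-box sites. In this comparison 0 of the 10 genes with the E-box rose and 1 fell, beside 4 and 2 of the 17 without it. The part of the E-box in the change of Mcoln1 was not tested. Npc1 changed by -1.09 (adjusted p = 0.00195), from 3.14, 2.60, 2.46 and 2.25 to 1.54, 1.18, 1.71 and 1.64.

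The other 3 genes that fell were autophagy genes or their regulator, as Map1lc3b changed by -0.71 (adjusted p = 0.00934), Tfeb by -0.84 (adjusted p = 0.0196) and Map1lc3a by -0.87 (adjusted p = 0.0245). Map1lc3b went from 5.54, 5.57, 5.40 and 5.35 to 4.58, 4.90, 4.93 and 4.60, without overlap. The 4 genes that rose were Laptm5 (2.17, 4.51-fold, adjusted p = 0.00318), Lipa (0.82, adjusted p = 0.0242), Ctsc (1.00, adjusted p = 0.0372) and Ctsk (1.20, adjusted p = 0.0427). All 6 Kupffer cell markers, 9 of 12 recruited macrophage markers and 3 of 9 stellate cell markers rose and 3 of 9 hepatocyte markers fell in this comparison, and 1 liver after hepatectomy held the highest recruited macrophage sum of all arrays, 380, beside 61.6 for the lowest of its group. The part of these cells in the changes was not tested. Without that liver Laptm5 was still called, at 1.78 (adjusted p = 0.0221), while Ctsc (0.68, adjusted p = 0.188), Ctsk (0.86, adjusted p = 0.192), Lipa (0.81, adjusted p = 0.059) and Map1lc3a (-0.74, adjusted p = 0.0964) were not.

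Of the 9 calls, those of Mcoln1, Npc1 and Laptm5 held under each alternative tried and with each array left out. The processed table was not among these alternatives. Tfeb was lost without standard-diet replicate 1 before hepatectomy (-0.67, adjusted p = 0.0768). A fit to the 2 groups alone called 3 genes, beside 4.9% of all genes. Quantile normalization gave 5 higher and 3 lower, beside 1841 higher and 1231 lower of all genes. Median scaling gave 4 higher and 2 lower, beside 1727 higher and 827 lower. Among 17 other V-ATPase subunits 0 rose and 3 fell, which were Atp6v0c (-0.80), Atp6v0b (-1.06) and Atp6v0d1 (-0.89). Among 31 other lysosomal enzymes Ctss rose by 2.65, and Ctsf (-1.03) was among 3 that fell. Tsc2, which restrains mTORC1, changed by -1.62 and Mitf by 0.80.

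In the other 3 hepatectomy comparisons few of the genes were called. On MCD diet without agonist they were 3 (9.09%, beside 9.48% of all genes, 6.49% higher, 3% lower), with Wipi1 at 0.88 (adjusted p = 0.0256), Mcoln1 at -0.63 (adjusted p = 0.0403) and Ctsc at 1.00 (adjusted p = 0.0474). Mcoln1 went from 4.04, 4.48, 4.04 and 4.33 to 4.04, 3.53, 3.50 and 3.28, with 1 liver after hepatectomy at the level of the lowest before it. In this comparison 4 of 8 neutrophil markers rose, their part in the 3 calls not tested. On standard diet with agonist they were 3 (9.09%, beside 7.39% of all genes, 2.98% higher, 4.41% lower), all lower, with Map1lc3b at -0.70 (adjusted p = 0.0181), Atp6v1a at -0.84 (adjusted p = 0.021) and Map1lc3a at -0.83 (adjusted p = 0.0466). Atp6v1a went from 4.09, 3.70, 4.50 and 3.88 to 3.09, 3.11, 3.13 and 3.48.

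On MCD diet with agonist they were 2 (6.06%, beside 10% of all genes, 3.73% higher, 6.32% lower), both higher. Wipi1 rose by 0.93 (adjusted p = 0.0191), from -0.19, 0.45, -0.39 and 0.90 to 0.92, 1.04, 1.02 and 1.50. Sqstm1, the receptor p62 that links ubiquitinated cargo to LC3, rose by 1.05 ± 0.31 (adjusted p = 0.0301), from 2.54, 3.84, 3.24 and 4.04 to 3.97, 5.14, 5.19 and 3.57, with overlap, and its other probe gave -0.35. Here 3 of 6 Kupffer cell markers and 3 of 4 pancreatic acinar markers rose and 4 of 9 hepatocyte markers fell, their part in both rises not tested. The arrays did not overlap for 7, 7 and 1 of the genes in these 3 comparisons, beside 19%, 18.2% and 16.3% of all genes. The median change over the 33 genes was -0.01, -0.02 and -0.10, and over all genes -0.02, -0.04 and -0.07. A fit to the groups compared alone called 0 genes in both comparisons with agonist, beside 5.88% of all genes on standard diet and 4.53% on MCD diet. Each of the 8 calls of these 3 comparisons was lost without single arrays (adjusted p 0.0505 to 0.177).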

How the data were processed

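Liver RNA was extracted with Trizol and RNeasy columns per the labels' protocols and run in one colour on arrays of 62976 spots (3671 controls). Per the file headers, the deposited scanner files hold spot intensity from Feature Extraction 10.7.3.1, background-subtracted in the processed signal. The deposited table was taken to hold log2 values, which its rank correlation with the scanner values cannot show. The submitters' processing notes name limma, with no version. Its column medians are 6.53 to 6.55 before and 7.05 to 7.06 after hepatectomy, so it was not used across hepatectomy, and its centring is unknown.

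Tests used the log2 processed signal less the 75th percentile of its array, without flagged spots (5010 values, 0.264%), with repeated spots averaged. A probe entered if all 4 arrays of 1 or more groups had it well above background and it was unflagged on at least 2 arrays of every group (30166 probes). A gene is the probe with the highest mean. Of the 33 genes 13 had several probes, and 2 had 1 flagged array (Ctsb and Gabarapl1). One limma fit (R 4.3.3, limma 3.58.1) held all 8 groups. The fit was also run on simulated data for the diet at baseline without agonist. These had independent noise and no slide, scanner or cell-mix effect, so they cannot show how such effects bear on the calls. The 33 genes and the pathway and marker lists were chosen with earlier results of these data known. All called members are named; array values are shown for the 11 genes that had 1 of the 2 smallest adjusted p in any comparison, though not in every comparison that calls them, plus Laptm5, chosen after its values were seen. Of each other list up to 3 genes with the smallest adjusted p are named, and not all that the rule allows are printed. The deviations of same-numbered livers correlated at -0.207 to 0.444, with all 4 pairs above 0 in 3 of 12 comparisons and all 4 above 0.1 in none, so replicate numbers were not taken as pairs. Alternatives were normexp background correction (offset 50), quantile normalization or scaling to the median, averaging the probes of a gene, dropping the filter on dim probes, the replicate number as a block, a fit to the groups compared, both readings of the processed table and each array left out. A slide block could not be fitted.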

Additional observations from a re-analysis of the deposited data

Results flagged for a closer look

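Of 262 group-by-gene sets of 4 livers, 16 held a liver whose gap to the nearest other exceeded Dixon's 95% critical share of the group's range, where chance flags about 1 in 20 groups (13.1 expected). Of these, 4 lay in standard diet before hepatectomy, which were Ctsb at 5.54 (the others 6.76 to 6.89), Ctsd at 6.835 (6.29 to 6.31), Ulk1 at 5.73 (6.09 to 6.12) and Wipi1 at 1.025 (1.46 to 1.50). On MCD diet Grn stood at 4.68 (5.44 to 5.59) and Atg5 at 4.80 (3.81 to 3.85), both in the same liver, and Atg5 stood at 3.20 in 1 liver on standard diet with agonist (4.18 to 4.34). After hepatectomy on standard diet the liver with the highest macrophage marker sum had Lamp1 at 7.80 (8.03 to 8.06) and Tfeb at -0.56 (the lowest of the others -1.08). On standard diet with agonist after hepatectomy 1 liver had Ctsk at 0.24 (-1.09 to -0.97), Gaa at 4.96 (5.49 to 5.50), Atp6v1a at 3.48 (3.09 to 3.13) and Ulk1 at 4.36 (5.70 to 5.79). The remaining values were Ctsl at 8.13 (8.80 to 8.85) and Gusb at 3.48 (3.32 to 3.32) in the same MCD liver after hepatectomy, and Lipa at 3.38 (4.10 to 4.18) on MCD diet with agonist after hepatectomy.

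The diet change at baseline differed with and without agonist, by the interaction term of limma, for Npc1 (1.55), Tfeb (1.62), Ctsc (-1.57), Laptm5 (-2.25) and Npc2 (-1.37).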

How the results depend on the processing

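Of the 55 calls of a gene in a comparison, 4 (Ctsl for the diet at baseline without agonist, and Laptm5, Mcoln1 and Npc1 for hepatectomy on standard diet) held under each alternative tried and with each array left out, and 25 held with each array left out. Ctsl met 9 alternatives beside the left-out arrays. Laptm5, Mcoln1 and Npc1 met 7, without either reading of the processed table, so they were not put to the same checks as Ctsl. Normexp kept 36, median scaling 37, quantile normalization 44, no filter 43, the mean over probes 49 and the fit to the groups compared 30, with 0 changes of sign. The replicate block kept 54 of 55 and left 9 genes called for the diet at baseline without agonist; it ended the call of Map1lc3a for hepatectomy on standard diet with agonist. Of the 38 calls that the processed table can test, 20 held with its columns at the arrays they match and 6 as labelled. As labelled 10 changed sign, and 0 did with the columns at the arrays they match. A diet comparison as labelled takes the columns that match the arrays of an agonist comparison, and the reverse. For the diet Atp6v0d2 was at -0.33 and -0.38 at baseline without and with agonist and at -0.18 after hepatectomy with agonist. Ctsc was at 0.012 for the diet at baseline with agonist. For the diet after hepatectomy without agonist Ctsl was at -0.22, Ctsz at -0.33, Wipi1 at -0.078 and Glb1 at 0.33. With agonist after hepatectomy Glb1 was at 0.16 for the diet. Npc1 was at 0.10 for the agonist at baseline on standard diet.

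Counts of the 33 genes that moved beyond 1.5 times were as follows, with causes not tested. For the diet without agonist the table as labelled gave 3 at baseline and 0 after hepatectomy. For the diet with agonist at baseline normexp and no filter gave 4 each, the groups compared 3 and the table at matched arrays 3, and after hepatectomy the table as labelled gave 0. For the agonist at baseline on standard diet normexp gave 6, the mean over probes 5, the groups compared 1 and the table as labelled 9. On MCD diet normexp gave 9, median scaling 6, quantile normalization 1, the groups compared 0 and the table at matched arrays 6. For the agonist after hepatectomy the table as labelled gave 5 and 4. For hepatectomy on standard diet the groups compared gave 3. On MCD diet median scaling and no filter gave 1 each. On standard diet with agonist normexp gave 8, median scaling 1, quantile normalization 0 and the groups compared 0. On MCD diet with agonist normexp gave 9 and the groups compared 0. For the interaction at baseline both readings of the table gave 2.

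With 1 array left out the diet comparisons called 8 to 10 and 5 to 6 genes at baseline and 5 to 6 and 2 to 6 after hepatectomy. The agonist called 1 to 5 and 0 to 4 at baseline and 0 after hepatectomy on either diet. Hepatectomy called 5 to 11, 0 to 2, 1 to 3 and 0 to 2, and the interaction 3 to 6 at baseline and 0 after hepatectomy. Over all genes the diet at baseline with agonist went from 3299 calls to 1891 with normexp, and the split for the diet without agonist from 2322 higher and 3338 lower to 4426 and 1230 with median scaling.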
